A study of Mus musculus with 6 samples.

Results

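The Hox cluster genes were described here through every probe set whose single annotated gene symbol was Hoxa, Hoxb, Hoxc or Hoxd followed by a number. That rule gave 48 probe sets of 33 genes, out of 18194 genes with a probe set of their own on the array. Other Hox genes were not analysed here, nor were 3 probe sets annotated to 2 Hox genes at once. RNA was measured on 6 Affymetrix mouse arrays, 2 per group, from cells of day 4 embryoid bodies (aggregates of differentiating embryonic stem, or ES, cells) sorted for Flk1, a receptor on early mesoderm encoded by Kdr. SclKO cells (n = 2) came from a line without functional Scl, derived from the J1 ES line of strain 129S4/SvJae, and were sorted on Flk1 alone. WT Scl+ cells (n = 2) and WT Scl- cells (n = 2) came from 1 reporter line on the R1 ES background, an F1 of other substrains, in which human CD4 knocked in at the Scl locus (gene Tal1) reports Scl expression. WT Scl+ cells were Flk1+ and human CD4+, and WT Scl- cells were Flk1+ and human CD4-. All lines were kept in serum and LIF, spent 2 days in a pre-embryoid-body medium with LIF, and were then plated at 100000 cells per well for 4 days with transferrin and ascorbic acid. The effects of the knockout, of the parent ES line and of the gate thus cannot be told apart in any comparison with SclKO, whose labels also call the cells Scl-. The labels do not state whether replicates are separate cultures, and a p-value here reflects array-to-array spread that may be technical.

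Hox genes encode homeodomain transcription factors that give cells their position along the head to tail axis. They lie in clusters a to d, in which genes are numbered from the 3′ end (paralogue 1) to the 5′ end (paralogue 13), and during gastrulation the low-numbered genes switch on first, in the posterior primitive streak and the mesoderm that leaves it. Hox proteins bind DNA together with TALE homeodomain partners (Pbx, Meis and Pknox proteins), and several of them act in blood: forced Hoxb4 expression expands haematopoietic stem cells in the mouse, and Hoxa9 supports stem and progenitor cells and is a driver of leukaemia.

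Values are natural logs of the deposited values, and differences are in the same log units. A difference of 1 log unit is 2-fold if the natural log is read as the log2 value of RMA, the authors' summary method, and 2.72-fold if those values are taken as linear, so folds are given in that order. A value under its array's 40th percentile (4.54 to 4.59) is called dim and gives no exact level. A probe set was tested with limma if it lay above that limit on at least 2 of the 6 arrays. A level belongs to its probe set, so levels are compared between arrays and never between genes. WT Scl+ replicate 2 stood apart from the rest: its correlations with the other arrays across tested probe sets were 0.937 to 0.964, against 0.973 to 0.986 among the other 5 arrays. Kdr was at 11.2 and 10.8 in SclKO, 11.3 and 10.9 in WT Scl+, and 11.1 and 11.2 in WT Scl-. Tal1 was at 5.71 and 6.14 in SclKO, 8.65 and 8.78 in WT Scl+, and 6.52 and 7.97 in WT Scl-, so the SclKO arrays held the lowest values of the targeted gene, and WT Scl- replicate 2 lay close to WT Scl+.

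Most of the Hox clusters lay in the dim range in this early mesoderm. Of the 48 probe sets, 26 were under the limit on every array and only 10 were above it on all 6. The filter kept 20 probe sets of 17 genes. By cluster it kept 8 of 11 Hoxb probe sets, 4 of 16 Hoxa, 4 of 11 Hoxc and 4 of 10 Hoxd. By paralogue number it kept 6 of 11 probe sets of paralogues 1 to 3, 9 of 20 of paralogues 4 to 8, and 5 of 17 of paralogues 9 to 13. The 28 probe sets that were not tested had values between 1.55 and 4.67. The 16 genes without a tested probe set were Hoxa2, Hoxa4, Hoxa10, Hoxa11, Hoxa13, Hoxb6, Hoxb7, Hoxb9, Hoxc4, Hoxc8, Hoxc10, Hoxc13, Hoxd3, Hoxd10, Hoxd11 and Hoxd13. Among their probe sets, 1 of Hoxa11 and 1 of Hoxa13 lay above the limit on 1 array and the others on 0. The largest differences among the 28 untested probe sets were -0.55 log units between SclKO and WT Scl+, 0.82 between SclKO and WT Scl-, and 0.58 between WT Scl+ and WT Scl-. The antisense transcript Hoxb5os, which was no member, was dim on all arrays (2.74 to 4.28).

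**Figure D1:**
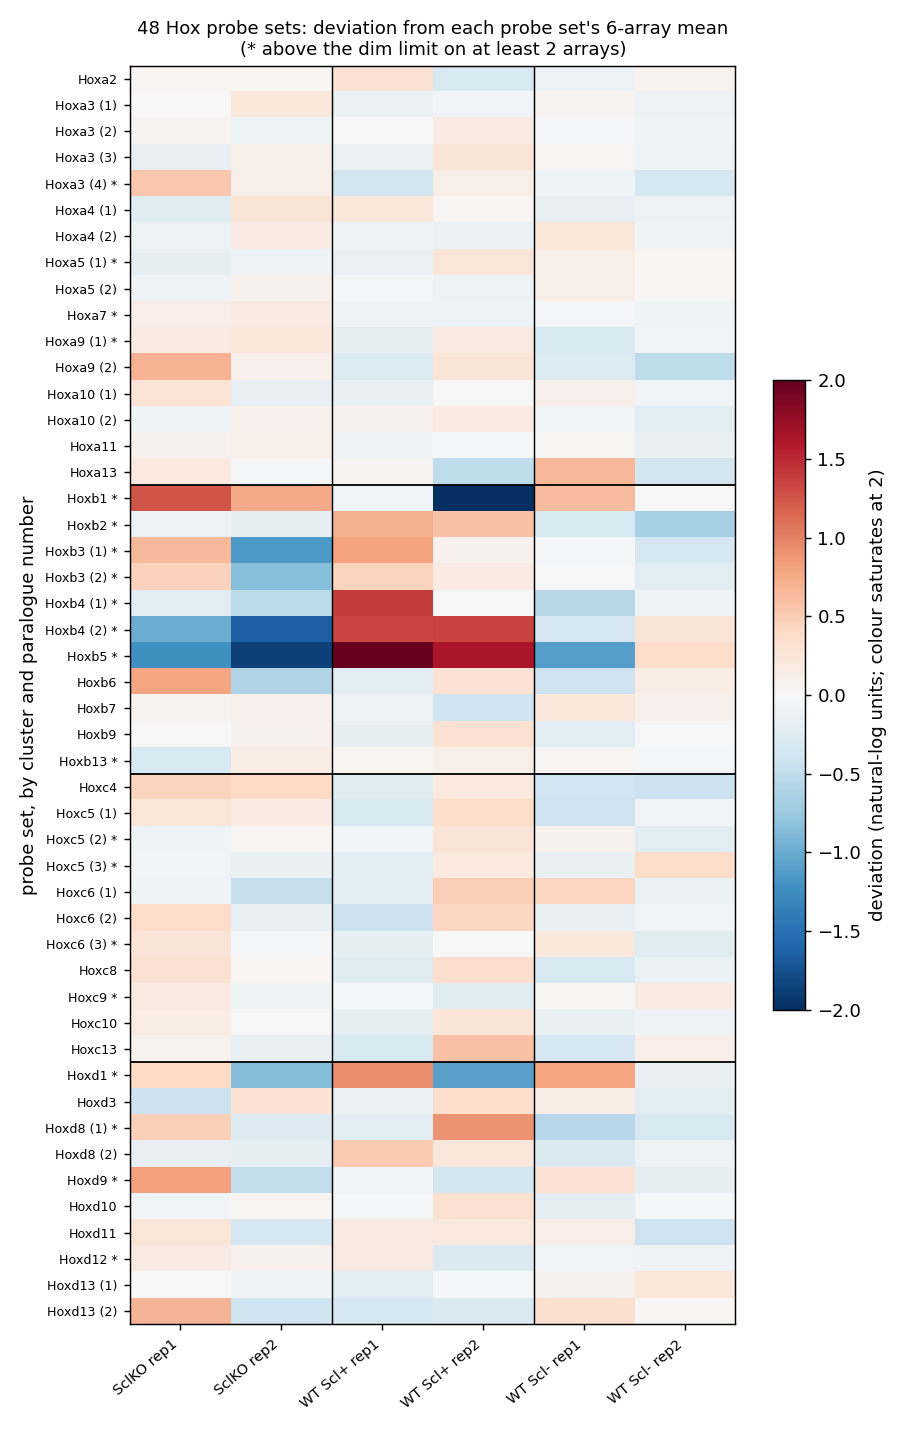
Each row is 1 of the 48 Hox probe sets, ordered by cluster and paralogue number, and each column 1 of the 6 arrays. Colour gives the deviation from the probe set's mean over the 6 arrays in natural-log units, with an asterisk on the 20 probe sets that were tested. Strong colour is seen in the rows of Hoxb1 to Hoxb5 and, between replicates, of Hoxd1, and most rows of Hoxa, Hoxc and Hoxd are pale.

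The widest differences between groups were in the 3′ part of the Hoxb cluster. Hoxb2, Hoxb3, Hoxb4 and Hoxb5 lay above WT Scl- on the WT Scl+ arrays, and Hoxb1, the gene at the 3′ end, lay below it. Differences over 1 log unit in either direction were found for 4 of the 48 Hox probe sets in SclKO against WT Scl+, 1 higher and 3 lower (3.22% of all probe sets without a filter, 1.64% higher and 1.59% lower). In SclKO against WT Scl- there were 0 higher and 2 lower (0.759% of all probe sets, 0.351% higher and 0.409% lower). In WT Scl+ against WT Scl- there were 4 higher and 1 lower (2.34% of all probe sets, 1.25% higher and 1.09% lower). All of these, with all 6 arrays, were Hoxb probe sets. Without WT Scl+ replicate 2 the counts were 6, 2 and 4 in the same order, and over all arrays left out in turn they ran from 3 to 6, 1 to 3 and 4 to 6. These comparisons share samples pairwise, so a low or high group enters 2 of them. In bulk samples, fewer cells that express a gene and less RNA per cell cannot be told apart.

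**Figure D2:**
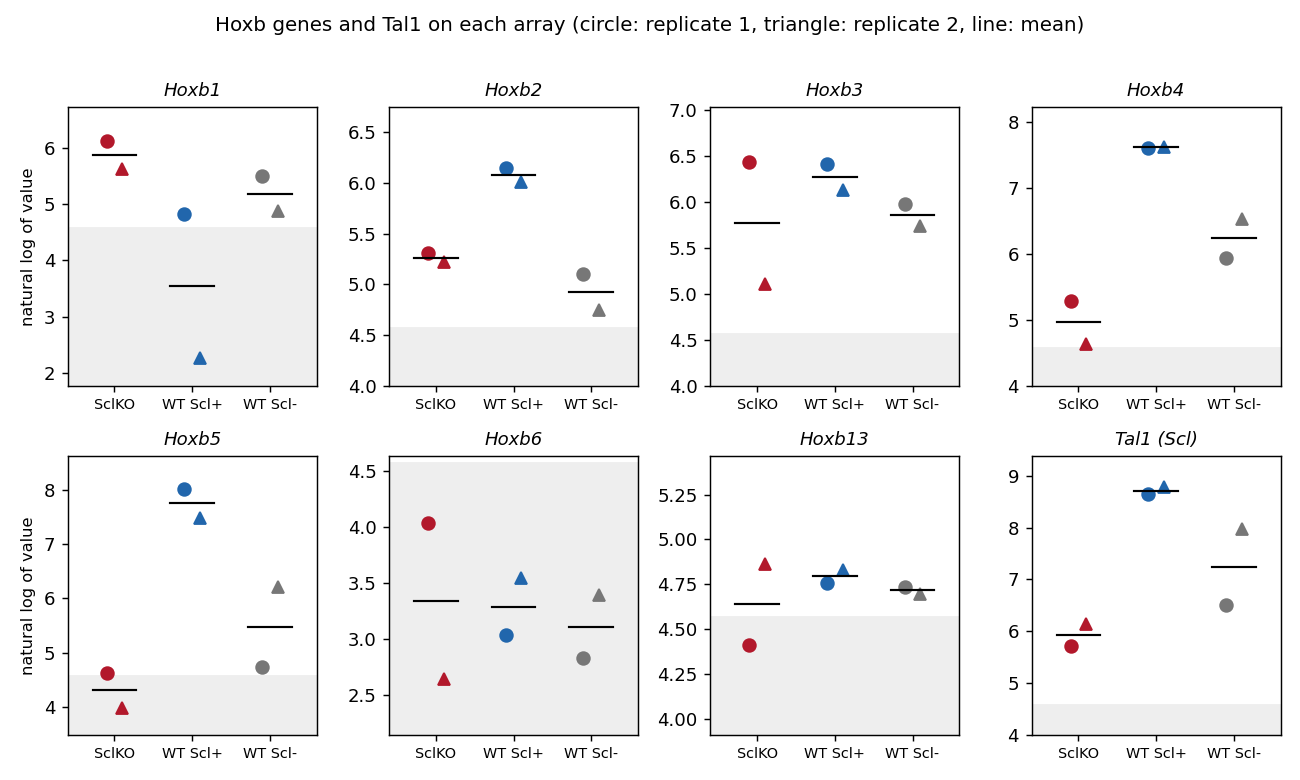
Natural log of the value (vertical axis) of 7 Hoxb genes, each by its probe set with the highest mean, and of Tal1 on each array of SclKO, WT Scl+ and WT Scl- cells. Circles are replicate 1, triangles replicate 2, bars the mean of 2 arrays, and grey marks the dim range. Hoxb2, Hoxb4 and Hoxb5 are highest on both WT Scl+ arrays, Hoxb1 is lowest there, and Hoxb6 is dim throughout.

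Hoxb5, a gene whose expression marks long-term haematopoietic stem cells in the adult mouse, showed the widest range. It was at 4.62 and 3.99 in SclKO, 8.02 and 7.48 in WT Scl+, and 4.74 and 6.22 in WT Scl-. Both WT Scl+ arrays lay above the other 4, and SclKO replicate 2 was dim. SclKO differed from WT Scl+ by -3.45 log units (SE 0.51, limma adjusted p = 0.136), or 10.9-fold and 31.4-fold lower as measured and 8.86-fold and 23.3-fold lower with the dim value set to the limit. WT Scl+ differed from WT Scl- by 2.27 log units (SE 0.51, limma adjusted p = 0.439), or 4.83-fold and 9.7-fold higher, and without WT Scl+ replicate 2 the differences were -3.72 and 2.54. SclKO differed from WT Scl- by -1.18 log units (SE 0.51, limma adjusted p = 0.898), which was -1.92 without WT Scl- replicate 1 and -0.44 without WT Scl- replicate 2.

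Hoxb4, whose protein expands blood stem cells when overexpressed in the mouse, was read by 2 probe sets whose differences had the same sign and unequal size. The probe set with the higher mean was at 5.28 and 4.64 in SclKO, 7.62 and 7.63 in WT Scl+, and 5.95 and 6.53 in WT Scl-. The 3 groups did not overlap: SclKO held the lowest values, WT Scl- lay between, and the WT Scl+ arrays were nearly equal. SclKO differed from WT Scl+ by -2.66 log units (SE 0.29, limma adjusted p = 0.118), or 6.33-fold and 14.3-fold lower. WT Scl+ differed from WT Scl- by 1.38 log units (SE 0.29, limma adjusted p = 0.439), while SclKO differed from WT Scl- by -1.28 (SE 0.29, limma adjusted p = 0.82). Without WT Scl+ replicate 2, SclKO minus WT Scl+ was -2.65 and WT Scl+ minus WT Scl- 1.38. SclKO against WT Scl+ passed in limma when the prior variance followed intensity and outliers were downweighted (adjusted p = 0.0376), which made it the 1 Hox call under that setting. The adjusted p of this gene in that comparison ran from 0.0376 to 0.608 over the alternatives. The other Hoxb4 probe set was at 4.87 and 4.54 in SclKO, 6.49 and 5.09 in WT Scl+, and 4.52 and 5 in WT Scl-. It gave -1.09 log units for SclKO against WT Scl+ (-0.39 without WT Scl+ replicate 1), 1.03 for WT Scl+ against WT Scl- (0.33 without WT Scl+ replicate 1), and -0.06 for SclKO against WT Scl-.

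Hoxb2, a gene of the hindbrain and neural crest that is also expressed in early mesoderm, was at 5.3 and 5.22 in SclKO, 6.15 and 6.01 in WT Scl+, and 5.1 and 4.75 in WT Scl-. Replicates lay close together and WT Scl+ was above both other groups, while SclKO lay slightly above WT Scl-. WT Scl+ differed from WT Scl- by 1.15 log units (SE 0.18, adjusted p = 0.439 by limma), or 2.22-fold and 3.17-fold higher, and SclKO from WT Scl+ by -0.82 (SE 0.18, limma adjusted p = 0.194). SclKO differed from WT Scl- by 0.34 log units (SE 0.18, limma adjusted p = 0.932). Hoxb3, its neighbour in the cluster, was read by 2 probe sets. The probe set with the higher mean was at 6.43 and 5.11 in SclKO, 6.41 and 6.14 in WT Scl+, and 5.98 and 5.74 in WT Scl-. The SclKO arrays lay on both sides of the WT arrays: they differed from WT Scl+ by -0.5 log units (SE 0.42, limma adjusted p = 0.64) with both SclKO arrays and 0.16 without SclKO replicate 2. WT Scl+ and WT Scl- did not overlap but differed by only 0.41 log units (SE 0.42, limma adjusted p = 0.79). The other Hoxb3 probe set gave -0.69, -0.06 and 0.63 log units for the same differences in the order SclKO minus WT Scl+, SclKO minus WT Scl- and WT Scl+ minus WT Scl-.

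Hoxb1, a gene of the posterior streak, early mesoderm and later of the hindbrain, had the opposite order. It was at 6.13 and 5.63 in SclKO, 4.82 and 2.27 in WT Scl+, and 5.5 and 4.88 in WT Scl-. SclKO held the highest values and WT Scl+ the lowest, without overlap between any of the groups. SclKO differed from WT Scl+ by 2.34 log units (SE 0.78, limma adjusted p = 0.314), and the difference of WT Scl+ from WT Scl- came to -1.65 (SE 0.78, limma adjusted p = 0.591). These sizes rested on the dim value of WT Scl+ replicate 2: without that array they were 1.06 and -0.37 log units, and with the dim value set to the limit 1.18 and -0.49. With WT Scl+ represented only by the array that stood apart (replicate 1 left out), Hoxb1 and Hoxb4 passed in SclKO against WT Scl+ (limma adjusted p = 0.0319 and 0.0391). In that fit the spread comes from the other groups alone and the lone WT Scl+ array is assumed to vary like them, so it holds no information on the spread of WT Scl+. SclKO and WT Scl- differed by 0.69 log units (SE 0.78, limma adjusted p = 0.983).

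Hoxb1 and Hoxb4 lie in 1 cluster and had differences of opposite sign, so the 250 bases before the start of each are shown, from RefSeq (GRCm38.p6), on the plus strand. Hoxb2, Hoxb3 and Hoxb5 are named only. Capitals mark matches on either strand to CANNTG, the E-box bound by basic helix-loop-helix factors such as Scl, to GATA, and to TGATNNAT, a form of the joint site of Hox and Pbx proteins.
Hoxb1 (chr11:96365508-96365757, plus strand): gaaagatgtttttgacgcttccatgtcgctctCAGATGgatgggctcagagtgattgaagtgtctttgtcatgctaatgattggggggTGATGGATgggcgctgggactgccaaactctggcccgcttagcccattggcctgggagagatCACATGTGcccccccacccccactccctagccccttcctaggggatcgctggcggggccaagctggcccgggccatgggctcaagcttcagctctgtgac
Hoxb4 (chr11:96318017-96318266, plus strand): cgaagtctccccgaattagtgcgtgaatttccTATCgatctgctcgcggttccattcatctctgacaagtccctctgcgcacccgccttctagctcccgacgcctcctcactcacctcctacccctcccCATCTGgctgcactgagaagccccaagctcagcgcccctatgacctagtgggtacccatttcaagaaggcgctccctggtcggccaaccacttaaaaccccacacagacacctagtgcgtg
The Hoxb1 window held 3 E-boxes, of which 2 overlap (CACATG and CATGTG), 1 Hox-Pbx match and 0 GATA matches. The Hoxb4 window held 1 E-box, 1 GATA match (read as TATC) and 0 Hox-Pbx matches. As background, Hoxb1 is known to maintain its own expression in the mouse hindbrain through Hox-Pbx sites before its start. An E-box of the form CAGATG, the one that Scl with its E-protein partners prefers, occurred in both windows (as CATCTG in Hoxb4), and in 14.4% of the 32851 windows of all genes. CANNTG was found in 66.2% of all windows, GATA in 53.6% and TGATNNAT in 7.68%. Among the 21 windows of the 19 members with a window, 15 held CANNTG, 11 GATA, 3 TGATNNAT and 2 CAGATG, the last form being a subset of CANNTG. A match is a description of the letters, not evidence of binding. The Hox windows were rich in CpG, with a median of 13 CpG against 6 over all windows, and a range of 2 to 35.

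Hoxb13, at the far 5′ end of its cluster and known from tail bud and prostate, was at 4.41 and 4.87 in SclKO, 4.76 and 4.83 in WT Scl+, and 4.74 and 4.7 in WT Scl-. All values lay close to the dim limit, and no difference exceeded 0.16 log units in size. Hoxb6, Hoxb7 and Hoxb9, which lie between Hoxb5 and Hoxb13, were dim on all arrays. Hoxb6 was at 4.03 and 2.64 in SclKO, 3.04 and 3.54 in WT Scl+, and 2.83 and 3.39 in WT Scl-, with overlap between all groups. The median difference of the 11 Hoxb probe sets was -0.5 log units for SclKO minus WT Scl+, -0.06 for SclKO minus WT Scl-, and 0.41 for WT Scl+ minus WT Scl-. For the 37 probe sets of the other clusters the medians were 0.08, 0.09 and 0.08 log units in the same order.

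The Hoxb cluster lies on chromosome 11, where the median over the other tested probe sets was -0.13 log units in SclKO minus WT Scl+ and -0.16 in SclKO minus WT Scl-, against 0.05 to 0.1 and 0.01 to 0.05 on the other autosomes. In SclKO minus WT Scl+ the differences were -2.66 log units for Hoxb4 (the probe set with the higher mean), -3.45 for Hoxb5 and 2.34 for Hoxb1. A chromosome median sets no bound on the value of a single gene. In WT Scl+ minus WT Scl-, where both groups are of 1 line, the chromosome 11 median was -0.03 log units and the other autosomes lay between -0.08 and -0.01. What part the chromosome 11 shift has in the SclKO values was not tested.

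Blood and endothelial markers were highest on the WT Scl+ arrays, like Hoxb2, Hoxb4 and Hoxb5. The levels of 6 such markers (Tal1, Gata1, Cdh5, Pecam1, Hbb-bh1 and Runx1, all 6 measured and above the limit on at least 2 arrays) summed to 32.6 and 34.1 in SclKO, 47.9 and 47.8 in WT Scl+, and 33.5 and 41.6 in WT Scl-. All 6 were lower in SclKO than in WT Scl+ at an unadjusted p under 0.05, and 5 were higher in WT Scl+ when set against WT Scl-, with 0 called after adjustment. Of all tested probe sets, 5.68% were lower in the first of these comparisons and 4.44% higher in the second at that threshold. Among the WT Scl- arrays, replicate 2 had the higher marker sum, and it also had the higher Hoxb4 and Hoxb5 levels, as well as the lower Hoxb1 and Hoxb2 levels. Early mesoderm markers had their lowest sums on the WT Scl+ arrays: Kdr, Pdgfra, Etv2, Mesp1, Hand1 and Foxf1 (6 of 6 measured) summed to 58.2 and 56 in SclKO, 52 and 48.7 in WT Scl+, and 58.4 and 55.3 in WT Scl-. Kdr itself was highest on WT Scl+ replicate 1. Posterior and presomitic mesoderm markers (5 of 6 measured, Cdx2 among them) summed to 28.8 and 27.5 in SclKO, 26.6 and 24.4 in WT Scl+, and 28.7 and 28 in WT Scl-. Pluripotency markers (6 of 6 measured) summed to 39.8 and 38.6 in SclKO, 41.1 and 32.8 in WT Scl+, and 38.3 and 34.6 in WT Scl-. Endoderm markers (6 of 6 measured) summed to 34.3 and 32.9 in SclKO, 35.4 and 33.1 in WT Scl+, and 31 and 30.8 in WT Scl-. Neural markers (5 of 5 measured, with Sox1, Zic1 and Pou3f2 dim on every array) summed to between 21.3 and 23.6 on all arrays. Whether the share of any of these cell types has a part in the Hoxb values was not tested.

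In the Hoxa cluster, 4 genes were tested. Hoxa3, a gene of the pharyngeal arches, was at 5.37 and 4.94 in SclKO, 4.46 and 4.93 in WT Scl+, and 4.74 and 4.49 in WT Scl-. SclKO differed by 0.46 log units from WT Scl+ (SE 0.24, limma adjusted p = 0.488) and by 0.54 from WT Scl- (SE 0.24, limma adjusted p = 0.898), with no overlap in either case, but the other 3 Hoxa3 probe sets were dim and gave between -0.1 and 0.2 log units. Hoxa7, a trunk gene, was at 5.94 and 5.98 in SclKO, 5.74 and 5.73 in WT Scl+, and 5.77 and 5.73 in WT Scl-. SclKO again lay above the other groups, by 0.23 log units over WT Scl+ (SE 0.15, limma adjusted p = 0.553) and 0.21 over WT Scl- (SE 0.15, limma adjusted p = 0.948).

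Hoxa9, which supports blood stem and progenitor cells, was at 5.33 and 5.36 in SclKO, 4.96 and 5.33 in WT Scl+, and 4.85 and 5.1 in WT Scl-. SclKO lay above WT Scl- without overlap, by 0.37 log units (SE 0.19, limma adjusted p = 0.927), while WT Scl+ differed from WT Scl- by 0.17 (SE 0.19, limma adjusted p = 0.811). A dim second Hoxa9 probe set gave 0.79 log units for SclKO minus WT Scl- and 0.39 for WT Scl+ minus WT Scl-. Hoxa5, a gene of lung and trunk patterning, was near the limit, at 4.48 and 4.58 in SclKO, 4.54 and 4.91 in WT Scl+, and 4.79 and 4.71 in WT Scl-. For Hoxa5, SclKO lay below WT Scl-, with a difference of -0.22 log units (SE 0.18, limma adjusted p = 0.963). Its second probe set, dim throughout, gave -0.07. Over all 16 Hoxa probe sets the median difference was 0.14 log units for SclKO minus WT Scl+, 0.1 for SclKO minus WT Scl-, and 0.01 for WT Scl+ minus WT Scl-.

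In the Hoxc cluster, the tested genes were Hoxc5 and Hoxc6, which pattern the neck and thorax, and Hoxc9, which acts in the thoracic spine and spinal cord. Of 3 Hoxc5 probe sets, the one with the highest mean was at 4.94 and 4.85 in SclKO, 4.79 and 5.19 in WT Scl+, and 4.85 and 5.36 in WT Scl-, and all groups overlapped. The other Hoxc5 probe sets differed from it in sign: for SclKO minus WT Scl- they gave 0.03 and 0.44 log units, against -0.21 here. Hoxc6 was at 5.69 and 5.38 in SclKO, 5.23 and 5.43 in WT Scl+, and 5.63 and 5.19 in WT Scl-, again with overlap. On this probe set, the one with the highest mean, Hoxc6 differed by 0.2 log units between SclKO and WT Scl+ (SE 0.22, limma adjusted p = 0.724). The other Hoxc6 probe sets, dim on every array, gave -0.4 and 0.11 log units for SclKO minus WT Scl+. For SclKO minus WT Scl- they gave -0.42 and 0.21, against 0.12 for the probe set with the highest mean. Hoxc9 was at 5.31 and 5.05 in SclKO, 5.09 and 4.9 in WT Scl+, and 5.16 and 5.32 in WT Scl-. WT Scl+ lay below WT Scl- without overlap for Hoxc9, by a difference of -0.24 log units (SE 0.18, limma adjusted p = 0.723). Over all 11 Hoxc probe sets the differences ran from -0.4 to 0.45 log units (median 0.11) in SclKO minus WT Scl+, from -0.42 to 0.82 (median 0.12) in SclKO minus WT Scl-, and from -0.24 to 0.38 (median 0.15) in WT Scl+ minus WT Scl-. The 0.82 was that of a Hoxc4 probe set dim on every array.

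In the Hoxd cluster, replicates of Hoxd1, Hoxd8 and Hoxd9 spread widely in at least 1 group. Hoxd1, the paralogue of Hoxb1, was at 4.86 and 3.59 in SclKO, 5.39 and 3.36 in WT Scl+, and 5.24 and 4.29 in WT Scl-. Replicate 1 was above the limit and replicate 2 dim in every group, and the spread within groups exceeded each difference between them: -0.15 log units for SclKO minus WT Scl+, -0.54 for SclKO minus WT Scl- (limma adjusted p = 0.985) and -0.39 for WT Scl+ minus WT Scl- (limma adjusted p = 0.895, SE 0.75 in each case). Hoxd8, a trunk gene that is also expressed in endothelial cells, was at 5.41 and 4.67 in SclKO, 4.71 and 5.84 in WT Scl+, and 4.37 and 4.62 in WT Scl-.

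Both WT Scl+ arrays lay above both WT Scl- arrays for Hoxd8, with a difference of 0.78 log units (SE 0.42, limma adjusted p = 0.639), which was 0.22 without WT Scl+ replicate 2 and 1.34 without WT Scl+ replicate 1. On this probe set the SclKO arrays also lay above WT Scl- for Hoxd8, by 0.55 log units (SE 0.42, limma adjusted p = 0.959), and overlapped WT Scl+ (-0.23, SE 0.42, limma adjusted p = 0.839). The second Hoxd8 probe set, dim on every array, gave 0.58 for WT Scl+ minus WT Scl-. It differed from the first in the other comparisons, with 0.03 for SclKO minus WT Scl- and -0.55, without overlap, for SclKO minus WT Scl+. Hoxd9, a gene of the posterior trunk and limbs, was at 6.22 and 4.9 in SclKO, 5.35 and 5.03 in WT Scl+, and 5.69 and 5.22 in WT Scl-. SclKO replicate 1 stood alone at the top, and SclKO differed from WT Scl+ by 0.38 log units (SE 0.44, limma adjusted p = 0.743), a difference that was -0.28 without that array. Hoxd12, a gene of the distal limb, was at 5.34 and 5.26 in SclKO, 5.36 and 4.89 in WT Scl+, and 5.11 and 5.1 in WT Scl-, and no difference exceeded 0.19 log units. Over all 10 Hoxd probe sets the median difference was -0.15 log units for SclKO minus WT Scl+, 0.06 for SclKO minus WT Scl- and 0.08 for WT Scl+ minus WT Scl-.

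**Figure D3:**
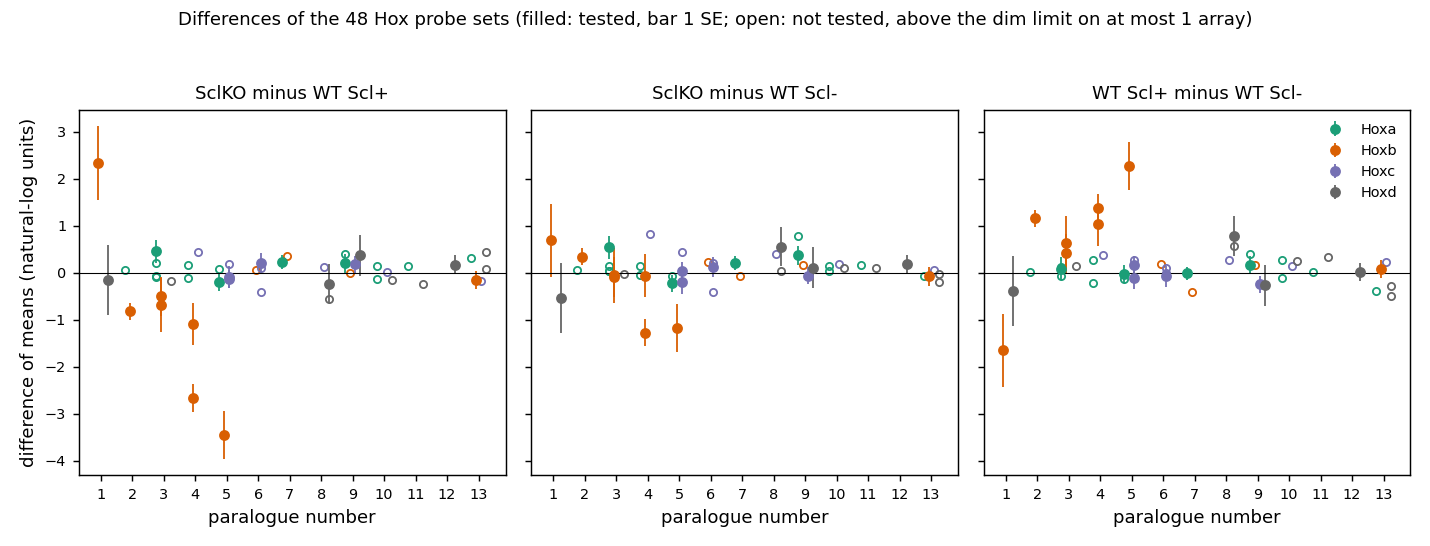
Difference of group means in natural-log units (vertical axis) against paralogue number for the 48 Hox probe sets, in the 3 comparisons and coloured by cluster. Filled points were tested and carry 1 SE, and open points were above the dim limit on at most 1 array and not tested. The Hoxb points of paralogues 1 to 5 spread from -3.45 to 2.34 for SclKO minus WT Scl+, while points of the other clusters lie between -0.55 and 0.46.

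By paralogue number, the 11 probe sets of paralogues 1 to 3 had a median difference of -0.1 log units for SclKO minus WT Scl+, 0.03 for SclKO minus WT Scl- and 0.11 for WT Scl+ minus WT Scl-. The 20 probe sets of paralogues 4 to 8 had medians of -0.02, 0.03 and 0.17 log units, and the 17 of paralogues 9 to 13 had 0.14, 0.09 and 0.08, in the same order. In paralogues 9 to 13 the largest differences in size were 0.45 (Hoxd13), 0.79 (Hoxa9) and -0.49 log units (Hoxd13), all on probe sets dim on every array. Over all 48 Hox probe sets, tested or not, the median was 0.04, 0.06 and 0.12 log units. Against these, the medians over all probe sets without a filter were 0.015, 0.004 and -0.016. Over the 28362 probe sets tested they were 0.05, 0.01 and -0.04. The first and the third Hox median turned sign when an array was left out. The first was -0.17 without WT Scl+ replicate 1 and -0.02 without SclKO replicate 1. The third was -0.04 without WT Scl+ replicate 2 (0.29 without WT Scl+ replicate 1). The 6 probe sets of Hoxb2 to Hoxb5, grouped after their values were seen, had medians of -0.95, -0.07 and 1.09 log units.

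In SclKO against WT Scl+, limma called 0 of the 20 Hox probe sets tested at an adjusted p under 0.05 (0.0106% of all tested probe sets were called, 0.00353% higher and 0.00705% lower). At an unadjusted p under 0.05 there were 4 of the 20 tested, 1 higher (Hoxb1) and 3 lower (Hoxb2, Hoxb4 and Hoxb5) in SclKO, where 13% of all tested probe sets passed, 7.35% higher and 5.68% lower. With each array left out in turn there were 4 to 6, the most without WT Scl+ replicate 2. Over all 48 Hox probe sets, tested or not, the arrays did not overlap for 8 higher and 5 lower in SclKO, where 20.6% and 18.2% of all probe sets did so.

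In SclKO against WT Scl-, limma called 0 of the 20 Hox probe sets tested at an adjusted p under 0.05 (0.0106% of all tested probe sets, 0.00353% higher and 0.00705% lower). The 1 Hox probe set at an unadjusted p under 0.05 was that of Hoxb4 with the higher mean, lower in SclKO, where 5.48% of all tested probe sets passed, 2.7% higher and 2.77% lower. With each array left out in turn there were 1 to 3, the most without SclKO replicate 1 and 2 without WT Scl+ replicate 1, WT Scl+ replicate 2 or WT Scl- replicate 1, and there were also 3 with array weights or without the filter. Without overlap lay 13 of all 48 Hox probe sets higher and 5 lower in SclKO, against 19.7% and 18.9% of all probe sets. Hoxa3, Hoxa7, Hoxa9, Hoxb1, Hoxb2, Hoxc4 and Hoxd8 were among those above WT Scl-, and Hoxb4 and Hoxb5 among those below.

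In WT Scl+ against WT Scl-, limma called 0 of the 20 Hox probe sets tested at an adjusted p under 0.05 (0% of all tested probe sets), and 3 were higher (Hoxb2, Hoxb4 and Hoxb5) and 0 lower at an unadjusted p under 0.05, where 9.38% of all tested probe sets passed, 4.44% higher and 4.94% lower. With each array left out in turn there were 3 to 5, the most without WT Scl+ replicate 1. Without overlap lay 15 of all 48 Hox probe sets higher and 7 lower in WT Scl+, against 16.7% and 18.8% of all probe sets. All 6 probe sets of Hoxb2 to Hoxb5 were among the 15.

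Of the TALE cofactors, 8 were measured and all 8 were tested, with median differences of 0.46 log units in SclKO minus WT Scl+, 0.22 in SclKO minus WT Scl- and -0.15 in WT Scl+ minus WT Scl-. None passed at an adjusted p under 0.05 in any comparison. At an unadjusted p under 0.05, 4 were higher and 0 lower in SclKO against WT Scl+, 2 were higher and 0 lower in SclKO against WT Scl-, and 0 were higher and 2 lower in WT Scl+ against WT Scl-. Over all tested probe sets the shares higher and lower were 7.35% and 5.68%, 2.7% and 2.77%, and 4.44% and 4.94% in these comparisons. Meis2, a Hox partner of the trunk and limb, was at 7.28 and 6.72 in SclKO, 5.8 and 4.78 in WT Scl+, and 6.28 and 5.58 in WT Scl-. SclKO lay above both other groups, by 1.71 log units over WT Scl+ (SE 0.41, limma adjusted p = 0.212) and 1.07 over WT Scl- (SE 0.41, limma adjusted p = 0.898).

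Pbx3 was at 8.69 and 8.71 in SclKO, 7.92 and 7.51 in WT Scl+, and 8.42 and 8.21 in WT Scl-, in an order opposite to that of Hoxb4. SclKO differed from WT Scl+ by 0.98 log units (SE 0.2, limma adjusted p = 0.171), and the difference of WT Scl+ from WT Scl- came to -0.6 (SE 0.2, limma adjusted p = 0.473). Pknox2 was at 6.95 and 5.68 in SclKO, 5.44 and 4.17 in WT Scl+, and 6.41 and 6.41 in WT Scl-, with WT Scl+ the lowest group and its replicate 2 dim. Meis1, the partner of Hoxa9 in leukaemia, was close to the limit on every array (4.37 to 4.86).

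Of 11 upstream regulators and cluster neighbours, 9 were measured and 5 tested, and 0 passed at an adjusted p under 0.05 in any comparison. At an unadjusted p under 0.05, 3 were higher in SclKO against WT Scl+ and 2 were lower in WT Scl+ against WT Scl-, with 0 in the opposite directions and 0 in SclKO against WT Scl-, beside the same shares over all tested probe sets. Egr2, which activates Hoxb2 in the mouse hindbrain, was at 6.74 and 7.36 in SclKO, 5.55 and 4.17 in WT Scl+, and 6.21 and 6.82 in WT Scl-. WT Scl+, the group with the highest Hoxb2, held the lowest Egr2, and its replicate 2, the array that stood apart, was dim. The differences were 2.19 log units for SclKO minus WT Scl+ (SE 0.49, limma adjusted p = 0.194) and -1.65 for WT Scl+ minus WT Scl- (SE 0.49, limma adjusted p = 0.452). Because of the dim value these sizes are not exact. A link between Egr2 and Hoxb2 was not tested. Cdx2, of the caudal family that activates Hox genes of the trunk, was at 6.08 and 5.15 in SclKO, 5 and 4.65 in WT Scl+, and 5.68 and 5.23 in WT Scl-. Its WT Scl+ arrays lay below the other 4, and its relatives Cdx1 and Cdx4 were dim on all arrays.

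**Figure D4:**
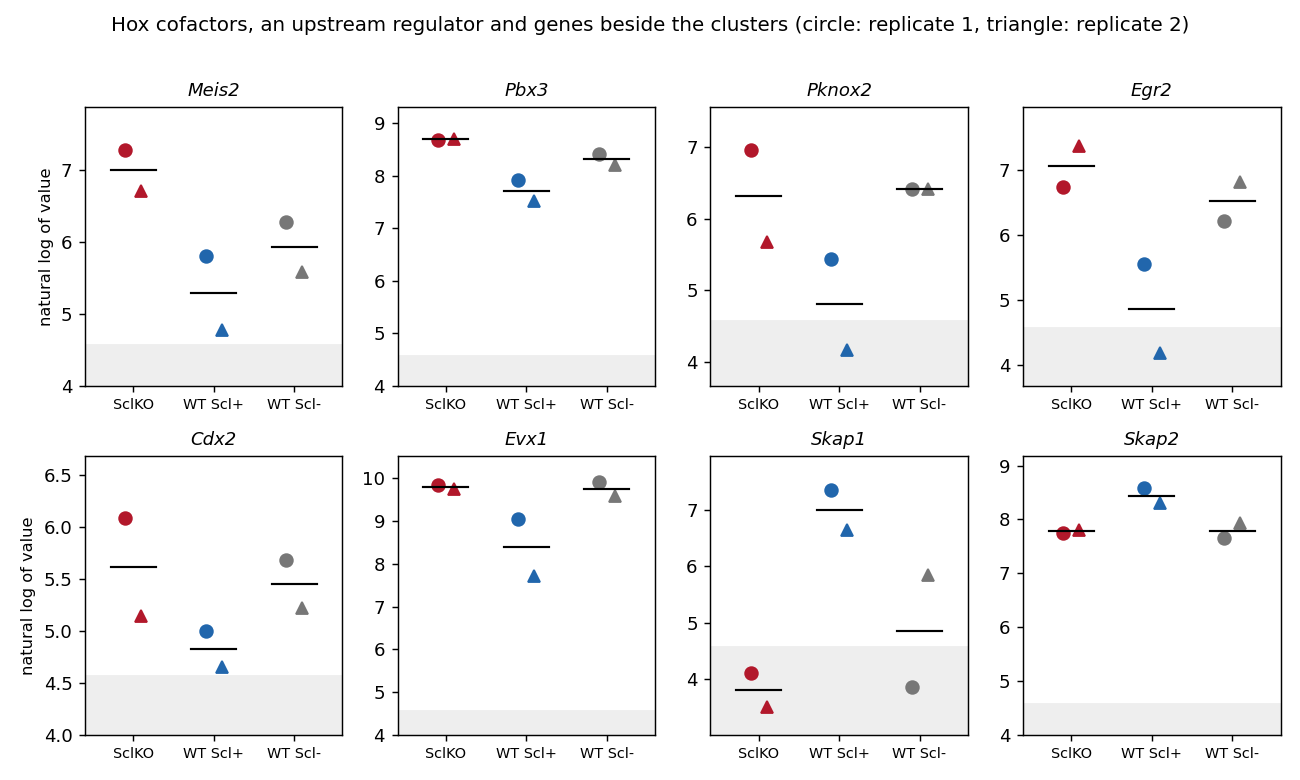
Natural log of the value (vertical axis) of 8 genes that act with Hox proteins, act on Hox genes or lie beside the clusters, on each array of SclKO, WT Scl+ and WT Scl- cells. Circles are replicate 1, triangles replicate 2, bars the mean of 2 arrays, and grey marks the dim range. WT Scl+ is lowest for Meis2, Pbx3, Pknox2, Egr2, Cdx2 and Evx1 and highest for Skap1 and Skap2.

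Of 24 chromatin regulators of the Hox clusters, 23 were measured and all 23 were tested, with median differences of 0.12 log units in SclKO minus WT Scl+, 0.05 in SclKO minus WT Scl- and -0.1 in WT Scl+ minus WT Scl-. None passed at an adjusted p under 0.05, and at an unadjusted p under 0.05 there were 2 higher and 1 lower, 1 higher and 2 lower, and 1 higher and 0 lower in that order. That was 3 of 23 in each of the first 2 comparisons, beside 13% and 5.48% of all tested probe sets, and 1 of 23 in the third, beside 9.38%. Ezh1, a Polycomb methyltransferase, was at 6.82 and 6.88 in SclKO, 8.16 and 8.35 in WT Scl+, and 7.26 and 7.82 in WT Scl-. That gave -1.4 log units for SclKO minus WT Scl+ (SE 0.22, limma adjusted p = 0.136), while its relative Ezh2 differed by 0.04. Bmi1, a Polycomb subunit needed by blood stem cells, was at 7.17 and 6.72 in SclKO, 5.98 and 6.1 in WT Scl+, and 6.4 and 6.21 in WT Scl-. SclKO lay above WT Scl+ by 0.9 log units there (SE 0.2, limma adjusted p = 0.198). Of 6 ParaHox and related homeobox genes, all measured, 4 were dim on every array and 2 were tested (Pdx1 and Gsx1), with 0 at an unadjusted p under 0.05.

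Genes beside the clusters were set next to them, taking the 5 nearest genes with a tested probe set on each side in the RefSeq gene order. The 10 neighbours of the Hoxb cluster had a median of -0.18 log units for SclKO minus WT Scl+, and 1 of them had an unadjusted p under 0.05. Of all tested probe sets 13% passed there, and of the 10 neighbours of Hoxa, Hoxc and Hoxd 3, 1 and 1 did. The 1 beside Hoxb was Skap1, an adaptor of T cell signalling that is the nearest tested neighbour on the Hoxb1 side. Skap1 was at 4.11 and 3.51 in SclKO, 7.36 and 6.65 in WT Scl+, and 3.87 and 5.84 in WT Scl-. Both SclKO arrays were dim, so the size is not exact, and SclKO differed from WT Scl+ by -3.19 log units (SE 0.64, limma adjusted p = 0.173). Hoxb1, with 2.34 log units in the same comparison, lies between Hoxb2 and Skap1, whose differences had the opposite sign.

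Beside the Hoxa cluster lay Skap2, a paralogue of Skap1, on the 3′ side and Evx1, a homeobox gene of the primitive streak, on the 5′ side next to Hoxa13. Skap2 was at 7.75 and 7.81 in SclKO, 8.58 and 8.31 in WT Scl+, and 7.65 and 7.93 in WT Scl-. Evx1 was at 9.85 and 9.75 in SclKO, 9.05 and 7.72 in WT Scl+, and 9.92 and 9.58 in WT Scl-. SclKO minus WT Scl+ was -0.66 log units for Skap2 (SE 0.18, limma adjusted p = 0.256) and 1.41 for Evx1 (SE 0.42, limma adjusted p = 0.275). For Evx1, WT Scl+ replicate 2, the array that stood apart, lay well below replicate 1. The Hoxa probe sets between these genes differed by at most 0.46 log units, but only 4 of the 16 were tested, and dim values give no exact level. Among the 10 neighbours of the Hoxc cluster, Nfe2, an erythroid and megakaryocyte factor, differed by -2.16 log units in SclKO minus WT Scl+ (SE 0.47, limma adjusted p = 0.19). Among those of the Hoxd cluster no gene differed by more than 0.59 log units there. Evx2, which lies next to Hoxd13, was at 5.34 and 5.6 in SclKO, 5.36 and 4.93 in WT Scl+, and 5.12 and 5.18 in WT Scl-.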

How the data were processed

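Per the submitters' processing notes, the authors used RMA, affy and limma, with versions not given. The authors deposited the values on a scale that is not log and not stated. Their natural log has the range RMA gives in log2, and many values lie past the scanner ceiling, as given above. The base is still not stated. A linear reading would rescale all differences by 1.44 and affect no test. Of 45101 probe sets, 64 controls were left out, 34958 had 1 gene symbol, 932 several and 9211 none, and 0 columns went unused. The number of arrays limits precision. The alternatives tried are in the closing section.

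In R 4.3.3, limma 3.58.1 estimated 1 mean for each group from the 6 arrays together (residual degrees of freedom 3, prior 3.13) over the 28362 probe sets above their array's 40th percentile on at least 2 arrays, with two-sided tests, Benjamini-Hochberg adjustment over all of them and calls under 0.05. Simulated data had 200 of 28362 probe sets shifted in WT Scl+. For SclKO against WT Scl+, 29.9% of shifts by 1 log unit, 95.5% by 2 and 98.5% by 4 were recovered. In the same comparison 17 unshifted probe sets were called. The simulated noise was normal, with the moderated variance of each probe set taken as its true variance. These shares thus do not give the power in the real data.

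Named were Hox genes with a probe set above the limit on at least 2 arrays, by the probe set with the highest mean, with full statistics for the 10 largest differences per comparison. Tal1, Kdr and fixed lists were added, and neighbours, Hoxb5os and the CAGATG motif were chosen after their values were seen. Members and lists were chosen with earlier results of these data known.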

Additional observations from a re-analysis of the deposited data

How the results depend on the processing

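The call counts, 0 Hox probe sets in each comparison, stayed at 0 in SclKO against WT Scl- and in WT Scl+ against WT Scl- under every alternative run (no filter, a filter at the 60th percentile, 1 probe set per gene, values floored at the dim limit, repeated quantile normalization, median centring, only the 4 arrays compared, trend and robust eBayes, array weights, the replicate block, and leaving out each array). In SclKO against WT Scl+ the count was 1 with trend and robust eBayes, and 0 to 2 when an array was left out. The median Hox difference ran from -0.17 to 0.11 log units in SclKO minus WT Scl+ when an array was left out, with the lowest value without WT Scl+ replicate 1. It ran from 0.04 to 0.11 in SclKO minus WT Scl-. In WT Scl+ minus WT Scl- it ran from -0.04 (without WT Scl+ replicate 2) to 0.29 (without WT Scl+ replicate 1). The cause of these moves was not tested. With floored values the medians of these comparisons were -0.02 and -0.03. Those are the differences between the array limits, which every Hox probe set dim on all arrays takes once floored. They carry no information on Hox levels. Array weights came out equal for the replicates of each group (0.516 for WT Scl+, 1.42 for WT Scl- and 1.36 for SclKO). That setting thus could not downweight WT Scl+ replicate 2 alone. With the replicate number as a block the counts were 0, 0 and 0 (4, 1 and 4 at an unadjusted p under 0.05), and no call changed. Deviations of same-numbered arrays correlated at 0.21 to 0.24, with 2 numbers per group, and the labels do not say what a number marks. Of the values of named genes under the alternatives, 449 kept their direction and side of the threshold, 9 turned sign and 3 passed it (Hoxb4 and Hoxb1, as given above). Settings that changed only the filter, the weights, the block, the spread estimate or the group outside a comparison left its differences as they were. A kept direction under those settings carries no information. With values floored at the limit, Hoxd1 was at 0.062 log units in WT Scl+ minus WT Scl-. Leaving out an array turned the sign of Hoxb3 (-1.16 to 0.16), Hoxd9 (-0.28 to 1.04) and Hoxd8 (-0.79 to 0.33) in SclKO minus WT Scl+, of Hoxd1 in SclKO minus WT Scl- (-1.18 to 0.090) and in WT Scl+ minus WT Scl- (-1.4 to 0.62), and of Hoxa9 in WT Scl+ minus WT Scl- (-0.015 to 0.36). The counts past 1 log unit without each array were added after seeing the data. Dim values limit what can be said of most Hoxa, Hoxc and Hoxd genes.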
